A study of Homo sapiens with 12 samples.

Results

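Open chromatin was compared before and after tunicamycin in KO52 (KO-52) acute myeloid leukemia (AML) cells that carry an empty vector (EV). The peaks of the EV list in DMSO and of the EV list after tunicamycin were merged wherever they shared at least 1 bp on chromosomes 1 to 22 and X, which gave 230928 regions. Over all 6 peak lists of the series the same rule gave 355051 regions. A region was called gained when only the tunicamycin list had a peak there, lost when only the DMSO list had one, and shared when both did.

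The series measured ATAC-seq, in which the Tn5 transposase cuts accessible DNA, in KO52 cells carrying p42, p30 or EV, with 2 replicates per condition and 50000 nuclei per library. The EV groups hold 4 of the 12 samples. EV_DMSO cells received DMSO, and EV_Tm cells received 2 µg/mL tunicamycin for 8 h. The cell line carries mutations in both CEBPA alleles, which all groups share, so the comparison has no unmutated counterpart. The p42 and p30 cells received 1 CEBPA isoform each. Per the study's text the ATAC-seq lines were transduced, and its methods describe the transduced lines as sorted for GFP, with isoforms fused to ERT2, whose entry into the nucleus 4-hydroxytamoxifen controls. The methods also state that cells with such fusions were given 4-hydroxytamoxifen ahead of experiments, and so were empty vector controls. The labels name neither the fusion nor 4-hydroxytamoxifen.

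Tunicamycin blocks the first step of N-linked glycosylation, so that unfolded glycoproteins accumulate in the endoplasmic reticulum (ER) and the unfolded protein response (UPR) is switched on. Its sensors are IRE1, which splices XBP1 mRNA, ATF6, which is cut into an active factor, and PERK, which phosphorylates eIF2alpha and thereby favours translation of ATF4. ATF4 pairs with C/EBP proteins on the C/EBP-ATF response element (CARE) of genes for amino acid synthesis and transport, tRNA charging and apoptosis, and C/EBPalpha is the factor that the mutations of these cells affect.

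The results turn on regions with a CARE, whose consensus TGATGCAA was searched on both strands. Of these regions, 9 windows of 100 bases around a summit are shown to let the element be seen in its setting (hg38, plus strand, capitals mark the CARE in either orientation). The first 3 are the regions with a CARE among the 8 strongest gained ones. All others were chosen after their values were seen: shared regions at WARS1, SARS1 and RAB43, and the strongest promoter regions of CHAC1, SHMT2 and ATF3.
VNN2, chr6:132749186-132749285: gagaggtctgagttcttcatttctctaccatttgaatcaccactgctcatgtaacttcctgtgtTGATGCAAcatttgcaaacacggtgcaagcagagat
CORO2B, chr15:68536468-68536567: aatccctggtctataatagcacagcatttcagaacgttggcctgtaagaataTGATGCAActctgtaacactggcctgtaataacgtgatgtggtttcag
DHRS2, chr14:23694694-23694793: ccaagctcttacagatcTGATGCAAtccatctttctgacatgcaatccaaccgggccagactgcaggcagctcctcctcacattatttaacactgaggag
WARS1, chr14:100375598-100375697: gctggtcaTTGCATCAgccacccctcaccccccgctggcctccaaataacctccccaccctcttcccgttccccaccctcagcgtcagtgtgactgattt
SARS1, chr1:109214940-109215039: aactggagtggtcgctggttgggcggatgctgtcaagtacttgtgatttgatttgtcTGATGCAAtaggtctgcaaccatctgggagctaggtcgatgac
RAB43, chr3:129112442-129112541: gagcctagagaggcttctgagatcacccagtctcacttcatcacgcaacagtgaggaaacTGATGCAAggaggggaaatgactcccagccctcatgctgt
CHAC1, chr15:40953243-40953342: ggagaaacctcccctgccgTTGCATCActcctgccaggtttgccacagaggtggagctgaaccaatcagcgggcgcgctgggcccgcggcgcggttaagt
SHMT2, chr12:57230176-57230275: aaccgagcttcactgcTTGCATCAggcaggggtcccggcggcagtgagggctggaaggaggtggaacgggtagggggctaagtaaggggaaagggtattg
ATF3, chr1:212608682-212608781: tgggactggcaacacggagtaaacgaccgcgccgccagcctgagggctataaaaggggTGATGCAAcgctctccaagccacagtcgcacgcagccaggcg

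Each condition is represented by 1 list that the authors called on pooled replicates. No difference below therefore has a replicate spread or a p-value, and each 95% interval covers counting alone (Wilson for shares of regions, exact conditional for ratios of tags). EV_DMSO held 187704 peaks and EV_Tm 201280, of which 187113 and 200633 were on the chromosomes used. The fold enrichment and p-value of a peak together gave the number of tags at its summit, with a median of 11 in both lists, and the background gave an estimated depth of 22250000 tags for EV_DMSO and 25130000 for EV_Tm, a ratio of 1.13. The deeper EV_Tm list calls weaker peaks, so treatment and depth cannot be told apart in any count of gained regions. In p42 and p30 cells the difference in depth runs the other way, with Tm to DMSO ratios of 0.848 and 0.87.

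The cell type was checked at promoters, meaning regions of which any part reaches within 1000 bp of a transcription start site. All 16 myeloid progenitor markers had a promoter region in at least 1 EV list, and 15 had a shared one, among them SPI1, MYB, RUNX1, CD33, MPO and CSF3R. The erythroid regulators GATA1 and KLF1 had none, and 3 of 8 erythroid and megakaryocytic markers had one. Promoters of other cell types were often open too, with a region at 7 of 8 lymphoid markers and at 6 of 7 epithelial and stromal markers, so a promoter peak is weak evidence of a cell type here.

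Tunicamycin-treated cells had 45986 gained regions, 19.9% of all 230928, and 38492 lost ones, 16.7%. The other 146450 regions, 63.4%, were shared. With the same number of peaks from each list (the 187113 with the highest −log10 q), the balance turned, to 37164 gained and 42551 lost. When the EV_Tm list was instead scaled to the depth of EV_DMSO, 45373 regions were gained and 38681 lost. This scaling left 199800 of its 200633 peaks, still more than EV_DMSO held, so it changed the list little. The sign of the net change thus depended on whether the numbers of peaks were made equal.

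Gained and lost regions were alike, and both were weak. Their median widths were 78 and 79 bp against 217 bp for shared regions, and their median summits held 6 tags each against 15. On the scale used for rank, the percentile of a peak's −log10 q within its own list, gained regions had a median of 20 and lost regions one of 21.9, while shared regions had one of 66.6. Only 4.03% of gained and 4.28% of lost regions stood above the median of their list. A median of 27804 bp separated gained regions from the nearest protein-coding start site, and 26915 bp separated lost ones. Promoters made up 14.1% of gained (95% interval 13.8 to 14.5), 13.5% of lost (13.2 to 13.9) and 22.8% of shared regions. Wider regions meet the promoter rule more easily, since any part of a region may reach the limit. Introns made up close to the same share of both changed classes, 49.8% of gained and 49.6% of lost regions.

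**Figure D1:**
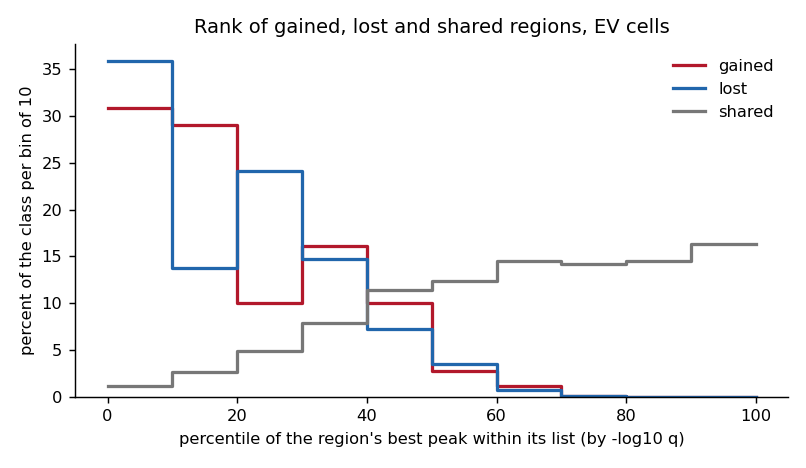
Share of gained, lost and shared regions of EV cells (y axis, percent of the class) in bins of 10 percentile points of −log10 q within the list that holds the region (x axis). Gained and lost regions lie at the low end, with medians of 20 and 21.9, and shared regions extend to the top, with a median of 66.6.

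By −log10 q, the excess of gained over lost regions was larger among stronger peaks. Where the peak behind the call had a −log10 q of 5 or more, 7980 regions were gained and 5572 lost, at 10 or more 324 and 139, and at 15 or more 16 and 4. By percentile within the list the excess did not grow steadily, with 1854 gained and 1647 lost regions at 50 or above, 571 and 296 at 60, 173 and 101 at 65, and 65 and 17 at 70. A region without a peak is not a closed region, since a peak in the other list may lie just under the threshold.

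For single regions named below, near refers to the gene with the nearest protein-coding start site, unless a distance limit is given. That site was 8637 bp away for VNN2, but 496951 bp for NYAP2, 552498 bp for CCDC54 and 1561822 bp for IFTAP. The strongest gained region lay in an intron near VNN2, which encodes a vanin family pantetheinase of leukocytes, with 22 tags after tunicamycin and no peak in DMSO. The region near DHRS2, a short-chain dehydrogenase gene, had 23 tags, and that near CORO2B, a coronin gene of the actin cytoskeleton, had 18. These 3 hold a CARE, as shown in the windows above. The other 5 of the strongest 8 lay near NYAP2, NEK5, ACVR2A, FAM135A and COL11A1, with 17 or 18 tags and no CARE. The NEK5 region held the CEBP consensus TTGNGCAA and the AP-1 element (TRE) TGACTCA. None of the 8 was at a promoter.

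The 8 strongest lost regions lay near ZMYM1, CCDC54, CASK, ZNF608, LMO7, DTWD2, KCNMA1 and PDE3B, again all outside promoters. They had 14 to 19 tags in DMSO and none of them held a CARE. Of these, the ZNF608 region was lost in p30 cells too and had a peak in both conditions in p42 cells. The KCNMA1 region was gained in p30 and lost in p42 cells, and the PDE3B region was gained in p42 cells. The other 5 had peaks in both conditions in both lines.

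The CARE set gained and lost regions apart. It was present within 100 bp of the summit in 1.36% of gained regions (1.26 to 1.47), 0.837% of lost ones (0.75 to 0.933) and 0.869% of shared ones, against 0.961% of all 230928 regions. Stronger gained regions held it more often. At a percentile of 50 or above, 3.4% of gained regions (2.66 to 4.32, n = 1854) and 0.85% of lost ones (0.507 to 1.42, n = 1647) held it. At 65 or above these were 11% (7.14 to 16.5, n = 173) and 1.98% (0.545 to 6.93, n = 101). At a −log10 q of 10 or more, 27 of 324 gained regions (8.33%) and 2 of 139 lost ones (1.44%) had a CARE. Of shared regions that passed the same limit, 0.864% did. Many of these were stronger, since 40057 shared regions reached 15 or more in both lists, against 16 gained regions. Most gained regions, the strongest included, held none.

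**Figure D2:**
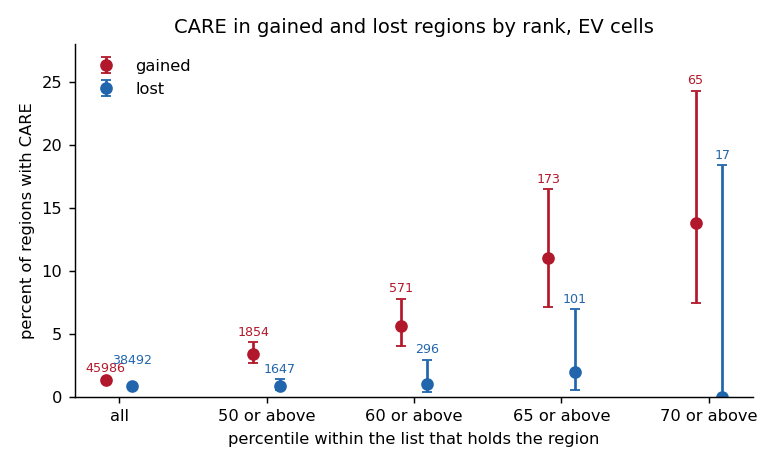
Percent of gained and lost regions of EV cells with a CARE within 100 bp of the summit (y axis), over all regions and above rising percentiles within the list (x axis); bars are 95% Wilson intervals and the numbers are regions. The gained share climbs from 1.36% to 13.8% and the lost share stays at or under 1.98%.

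The direction of this difference was kept in each setting tried. The ratio of the gained to the lost share was 1.62, and it ran from 1.32, when shared peaks had to cover at least 50% of each other, to 5.79 at a −log10 q of 10 or more. Away from promoters the shares were 1.45% and 0.892%. Among regions with a GC content of 40 to 50% they were 1.48% and 0.963% (over all regions, mean GC content was 46.2% in gained and 47.2% in lost ones).

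Other elements of the stress response were searched in the same way. The TRE, bound by AP-1, was in 10.1% of gained and 10.4% of lost regions (10.9% of all), and its ratio stayed between 0.947 and 1.26 over the same settings. The CEBP consensus was in 2.76% and 2.92% (2.84% of all). The UPR element TGACGTGG, which XBP1 and ATF6 can bind, was in 0.228% and 0.262% (0.283% of all). The ER stress element, CCAAT and CCACG with 9 bases between, was in 0.0087% and 0.0156% (0.0156% of all), in 4 and 6 regions. Its second form, ATTGG and CCACG with 1 base between, was in 0.013% and 0.00779% (0.0147% of all), in 6 and 3 regions, and these numbers are too low for a comparison. The CARE and the CEBP consensus cannot match the same stretch.

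The RUNX consensus TGTGGTTT, bound by the hematopoietic RUNX factors, differed in the opposite direction. It was in 3.99% of gained (3.82 to 4.18), 5.17% of lost (4.96 to 5.4) and 5.69% of shared regions (5.27% of all). Within the GC range above these shares were 3.78% and 5.1% for gained and lost regions. At a percentile of 50 or above they were 4.37% (3.53 to 5.4) and 7.41% (6.24 to 8.77). From 60 upwards the intervals overlapped, at 5.6% (4 to 7.8, 32 regions) and 8.45% (5.79 to 12.2, 25 regions) for 60 or above.

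Among shared regions, rank shifts in EV cells went with the CARE and RUNX in the same directions. The rank shift, the percentile in EV_Tm minus that in EV_DMSO, had a median of 0.807 points over the 146450 shared regions, with 5% below −25.9 and 5% above 29.8. A total of 36512 regions (24.9%) were higher by at least 10 points and 27529 (18.8%) lower. The summit tags, scaled to the estimated depth, had a median log2 ratio of −0.09 in EV cells, and of 0.09 in both p30 and p42 cells. In all 3 lines this median has the opposite sign to the depth difference. In EV cells it was −0.07 at a percentile of 90 or above and −0.18 below 50. Tag ratios are therefore read against the median of all genes or regions below.

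The 105312 shared regions that stood at a percentile of 50 or above in a list were cut by rank shift into 20 bins of 5265 or 5266 regions. In the top bin, where the median region went from 7 to 13 tags, 1.86% held a CARE (1.53 to 2.26). In the bottom bin, where it went from 12 to 7 tags, 0.798% did (0.591 to 1.08). With the bins made by scaled tags instead, the shares were 2.11% and 0.76%, and away from promoters, by rank, 1.8% and 0.732%. RUNX differed the other way, at 4.94% in the top bin and 7.9% in the bottom bin. Away from promoters it was in 5.45% of the top bin, 7.34% of the middle 10% and 8.42% of the bottom bin. The GATA consensus AGATAAG, in 3.49% of all regions, was in 2.87% and 4.1%. The NF-kB consensus GGGANTTCC, in 0.903% of all, was in 1.23% and 0.798%, and the TRE in 12.6% and 12%. The bins were made from EV lists alone. The median rank shift of the top bin was 36.7 points in EV cells, but −1.69 in p30 and −3.62 in p42 cells. For the bottom bin it was −31.5, −8.21 and −7.44. As a group, the rises of EV cells thus did not recur as rises in the other lines.

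**Figure D3:**
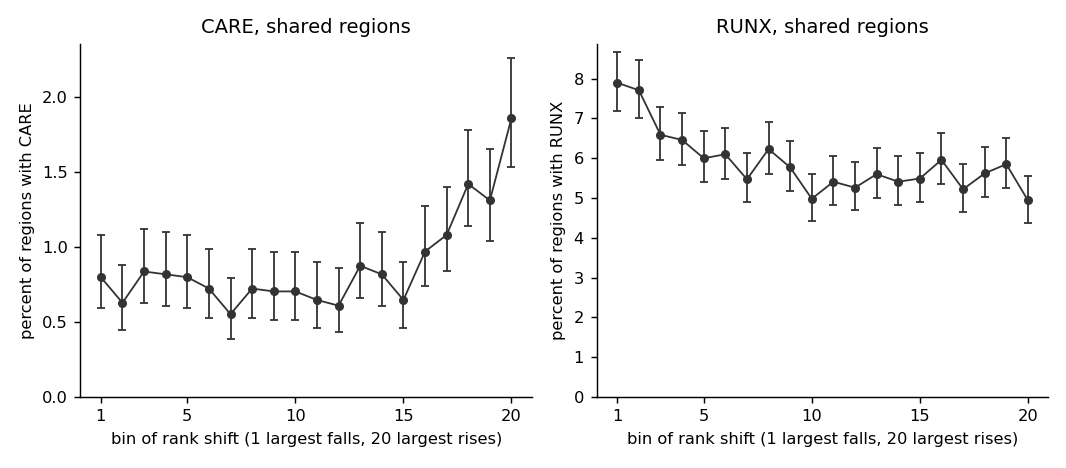
Percent of shared regions of EV cells with a motif within 100 bp of the summit (y axis) in 20 bins of rank shift, from the largest falls to the largest rises (x axis, 5265 or 5266 regions per bin); bars are 95% Wilson intervals. The CARE share is 0.798% in the lowest and 1.86% in the highest bin, and the RUNX share is 7.9% and 4.94%.

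Among shared regions that ended at the 75 percentile or above, the largest rank shift was in an intron of RIMS2, a gene of synaptic vesicle release, which went from 5 tags in DMSO to 26 after tunicamycin. In p30 cells the same region had no peak in DMSO and 27 tags after tunicamycin, and in p42 cells it went from 13 to 30. The region near LRRFIP2 went from 5 to 18 tags, with no peak and 20 tags in p30 cells and 12 and 22 in p42 cells. The other 6 of the 8, near C12orf40, FAM205A, GRXCR1, UGT3A1, NRF1 and IFTAP, went from 4 or 5 to between 16 and 18 tags in EV cells without such a shift in the others. In p30 cells the region near NRF1, for example, had 11 tags in both conditions. None of these 8 regions held a CARE.

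The largest falls were near HNRNPM (15 to 4 tags), STAP1 (22 to 8), ASB4 (18 to 5), DMRTA1 (15 to 5), RCN3 (20 to 6), GRB10 (16 to 6), SLC2A10 (17 to 7) and PCDH17 (17 to 6). STAP1 encodes a signaling adaptor of hematopoietic cells. In p30 cells the region near STAP1 went from 17 to 14 tags and that near RCN3 from 15 to 16. Of the 8, the PCDH17 region had the lowest ratio in p30 cells, with 11 and 5 tags.

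Some shared CARE regions, chosen after their values were seen, had higher tags in both EV and p30 cells. A second promoter region of WARS1, the tryptophanyl-tRNA synthetase, had 16 tags in EV_DMSO and 37 in EV_Tm, with 13 and 39 for p30 and 16 and 36 for p42. The depth-scaled ratio in EV cells was 2.05 (1.11 to 3.94). A promoter region of SARS1, the seryl-tRNA synthetase, had 18 and 35 tags in EV cells, 15 and 27 with p30, and 21 and 27 with p42. A region in an intron near RAB43, a small GTPase gene, went from 12 to 37 and from 17 to 34 tags in EV and p30 cells, but from 28 to 29 in p42 cells. MAN1C1, which encodes a mannosidase of N-glycan trimming, had an intronic region with a similar pattern, 11 to 30, 16 to 25 and 32 to 29 tags.

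The p42 and p30 lists share no library with the EV lists, so they give an independent reading of the EV classes. Of EV-gained regions, 12.9% were also gained in p30 cells and 9.28% in p42 cells, with 10.3% and 7.91% for EV-lost regions. Counted among regions that changed in the other line, 41.2% (40.4 to 42) of EV-gained regions were gained rather than lost in p30 cells, against 31.8% of EV-lost and 34.1% of EV-shared regions. In p42 cells these were 35.2%, 29.1% and 35%. All of these shares lie under 50%, and the Tm list is the shallower one in both lines.

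EV-gained regions with a CARE were more often gained than lost in p30 cells. Of the 624, 192 were also gained there and 61 lost, so that 75.9% (70.3 to 80.7) of those that changed were gained, against 40.5% (39.7 to 41.3) of EV-gained regions without a CARE. For EV-lost regions with a CARE the share was 38.8% (30 to 48.5), and for shared ones 55.9% (47.8 to 63.8). In p42 cells it was 57.7% (50 to 65) of EV-gained regions with and 34.9% (34.1 to 35.8) of those without a CARE, and 28.9% and 31.8% for lost and shared regions with one. EV-gained regions with a TRE had 45% in p30 and 38.7% in p42 cells.

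**Figure D4:**
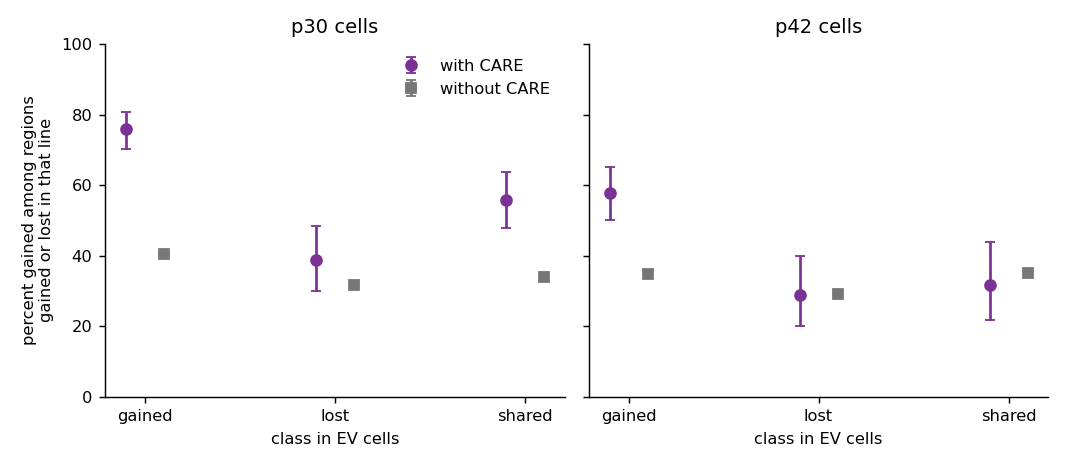
Percent gained among the regions that were gained or lost in p30 or p42 cells (y axis), for gained, lost and shared regions of EV cells with and without a CARE (x axis); bars are 95% Wilson intervals. EV-gained regions with a CARE are the highest in both lines, at 75.9% and 57.7%.

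The lines differed in whether the region was already open in DMSO. Of EV-gained regions with a CARE, 56.9% (53 to 60.7) had a peak in p42_DMSO, against 44.6% (44.2 to 45.1) of those without. In p30_DMSO it was the reverse, 27.4% (24.1 to 31) with and 39% (38.5 to 39.4) without. The p42_DMSO list is the deepest of the 6, with 29980000 estimated tags against 26530000 for p30_DMSO, and this comparison of regions with and without a CARE was made within each list. EV-gained regions with the CEBP consensus had a p42_DMSO peak in 61.7% and without it in 44.3%, while in p30_DMSO both shares were close, 38.2% and 38.8%. EV-lost regions with a CARE had a p42_DMSO peak in 66.1%, against 47.1% of those without. For p30_DMSO these were 39.8% and 40.6%. More frequent p42_DMSO peaks with a CARE were thus not particular to gained regions.

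The 27 gained CARE regions with a −log10 q of 10 or more were also followed in the other lines. In p30 cells 19 of them (70.4%, 51.5 to 84.1) were gained as well, 7 had a peak in both conditions and 1 was lost. In p42 cells 20 had a peak in both conditions, 4 were gained and 3 had none. Of the 297 gained regions without a CARE that passed the same limit, 12.1% (8.89 to 16.3) were gained in p30 cells and 80.8% had a p30_DMSO peak. A p42_DMSO peak was found at 74.1% (55.3 to 86.8) of the 27 and at 86.5% (82.2 to 90) of the 297, so among strong regions p42_DMSO peaks were not more frequent with a CARE. Only 2 of the 27 lay at a promoter, and 13 were in introns.

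The region near VNN2 had no peak in EV_DMSO and p30_DMSO, 22 and 21 tags after tunicamycin, and 20 and 26 tags in p42 cells. The DHRS2 region had 23 and 24 tags after tunicamycin in EV and p30 cells, with no DMSO peak, and went from 14 to 24 in p42 cells. The CORO2B region had another pattern, from 5 to 14 tags in p30 cells and from no peak to 16 tags in p42 cells. Near PLEK, which encodes the platelet and leukocyte protein pleckstrin and was picked after its values were seen, there were 21 and 26 tags after tunicamycin in EV and p30 cells, without a DMSO peak, and 25 and 24 in p42 cells.

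At the strongest promoter regions the tags of stress genes stayed closer to the depth ratio than at the regions above, which were chosen for large differences. Of 19962 protein-coding genes, 16252 had a promoter region, and the shares here are over all 19962. A gained promoter region was found at 4191 genes (21.0%), a lost one at 3238 (16.2%) and a shared one at 15521. For each of the latter the strongest shared promoter region was followed. Scaled tags were at least 1.25-fold higher after tunicamycin at 785 genes (5.06%) and at least 1.25-fold lower at 1812 (11.7%), with a median log2 ratio of −0.0685. The fold limit is not centred on this median. The 95% interval of the ratio excluded 1 at 5 genes in each direction, and at no gene of the lists below.

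In the ATF4 programme, the longest list, 6 of 32 genes (18.8%, against 5.06% of all genes) were higher by that fold. A further 2 (6.25%, against 11.7%) were lower, and the median log2 ratio was −0.0268. CHAC1, which degrades glutathione, went from 32 to 46 tags, a ratio of 1.27 (0.793 to 2.07). TRIB3, a pseudokinase induced by ATF4 and CHOP, went from 21 to 34 (1.43, 0.808 to 2.6), and the serine to glycine enzyme SHMT2 from 21 to 33 (1.39, 0.781 to 2.53). The peptide hormone gene ADM2 went from 13 to 22, the lipoprotein receptor VLDLR from 14 to 21 and the death receptor TNFRSF10B from 25 to 36. In p30 cells SHMT2 went from 21 to 29 tags and CHAC1 from 35 to 44, and in p42 cells from 23 to 32 and from 37 to 30. The 2 lower ones were PPP1R15A, the GADD34 phosphatase subunit that reverses eIF2alpha phosphorylation (25 to 22), and the amino acid transporter SLC7A5 (29 to 26). Another promoter region near PPP1R15A, the largest rise in rank around that gene, had 17 and 22 tags. ASNS, the asparagine synthetase, had 40 and 41 tags. A gained promoter region was found at 11 of the 35 genes (31.4%, against 21.0% of all genes) and a lost one at 6 (17.1%, against 16.2%). Such a gained share was not particular to this list. It was 34.6% for N-glycosylation genes (23.1% lost) and 37.5% for myeloid markers (50% lost). PHGDH and PSPH of serine synthesis had gained ones, and MTHFD2 of folate metabolism had both a gained and a lost one.

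The sensors and factors that start the response had open promoters in both conditions. EIF2AK3, which encodes PERK, had 53 and 61 tags, ERN1, which encodes IRE1, had 37 and 40, and ATF6 had 18 and 24. None of the 7 sensors or of the 12 stress transcription factors with a shared region passed the 1.25-fold limit. Over all genes 5.06% were higher and 11.7% lower, so lists this short may hold none. ATF4 had 43 and 46 tags, XBP1 36 and 39, and DDIT3, the gene of CHOP, 45 and 46. ATF3, a stress-induced repressor whose promoter holds a CARE, had 30 and 41 tags (1.21, 0.737 to 2.01), with 32 and 41 in p30 and 41 and 37 in p42 cells. A gained promoter region was found at 6 of 13 factors (46.2%, against 21.0% of all genes), with 2 at ATF3, and a lost one at 1 (7.69%, against 16.2%).

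The 18 ER chaperone and folding genes, classical targets of ATF6 and XBP1, also lay within 1.25-fold, with a median log2 ratio of −0.0481. This list too is short beside the 5.06% of all genes that were higher and the 11.7% that were lower. HSPA5, the chaperone BiP, had 46 and 50 tags, HSP90B1 46 and 51, and SDF2L1 46 and 43. Against all protein-coding genes this list was lower by percentile and higher by tags, as were the stress transcription factors. Of 11 genes of ER-associated degradation, 1 (9.09%, against 5.06% of all genes) was higher by the fold, EDEM2 at 24 and 34 tags (1.25, 0.722 to 2.21). The median log2 ratio of this list was 0.0739. The 26 genes of N-glycosylation, the pathway that tunicamycin inhibits, had a median of −0.138. Of these, ALG9 (25 to 16 tags) and GFPT2 (14 to 10) were lower by the fold (7.69%, against 11.7% of all genes). CRELD2 and ALG12 share 1 promoter region, which is counted in both lists.

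AP-1 and immediate early genes had no member higher by the fold (against 5.06% of all genes) and MAFK and IER3 lower (9.52%, against 11.7%). The median log2 ratio over the 21 genes was −0.117. JUNB went from 27 to 37 tags and MAFG from 23 to 32. Among 24 inflammatory mediators with a shared region, 2 were higher, the chemokine CCL5 (5 to 10 tags) and the cytokine IL1B (20 to 30). A further 2 were lower, IL12B (14 to 12) and IL23A (47 to 42). Each pair is 8.33% of the list, where 5.06% of all genes were higher and 11.7% lower. The list's median was 0.0172. Of 14 housekeeping genes, 2 (14.3%, against 11.7% of all genes) were lower, RPL38 (32 to 27) and TFRC (43 to 37), with a list median of −0.125. Gained promoter regions were found at 3 of the 26 inflammatory genes (11.5%, against 21.0% of all genes) and lost ones at 2 (7.69%, against 16.2%).

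Promoters of myeloid progenitor markers had the lowest median of the lists, −0.275 over 15 genes. Of these, 6 (40%) were lower by the fold and none higher, where 11.7% of all genes were lower and 5.06% higher. In the other marker lists 33.3% of epithelial and stromal, 28.6% of lymphoid and 0% of erythroid and megakaryocytic promoters were lower. CD33, a myeloid surface lectin, went from 31 to 22 tags (0.628, 0.347 to 1.12). MPO, the myeloperoxidase of neutrophil granules, went from 34 to 27, ELANE, the neutrophil elastase, from 8 to 4, and PRTN3, proteinase 3, from 7 to 6. The receptor gene FLT3 went from 25 to 20 and the progenitor antigen CD34 from 23 to 20. The promoter region of AZU1, which lies next to PRTN3 and ELANE, was lost. The factors SPI1 (47 and 46 tags), CEBPA (39 and 39) and RUNX1 (44 and 49) were within the fold, and CSF1R, the receptor of macrophage colony-stimulating factor, had 20 and 25.

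The tags of the 15 myeloid promoters summed to 418 in DMSO and 400 after tunicamycin, a depth-scaled ratio of 0.847, where all protein-coding promoters gave 0.953. The marker lists of other cell types are short, with scaled ratios of 0.922 for 7 lymphoid, 0.839 for 6 epithelial and stromal and 1.02 for 3 erythroid and megakaryocytic promoters. The low values of the epithelial list came from COL1A1 (28 to 20) and PDGFRB (24 to 18). A smaller share of cells with an open promoter and less accessibility per cell cannot be told apart in bulk libraries.

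**Figure D5:**
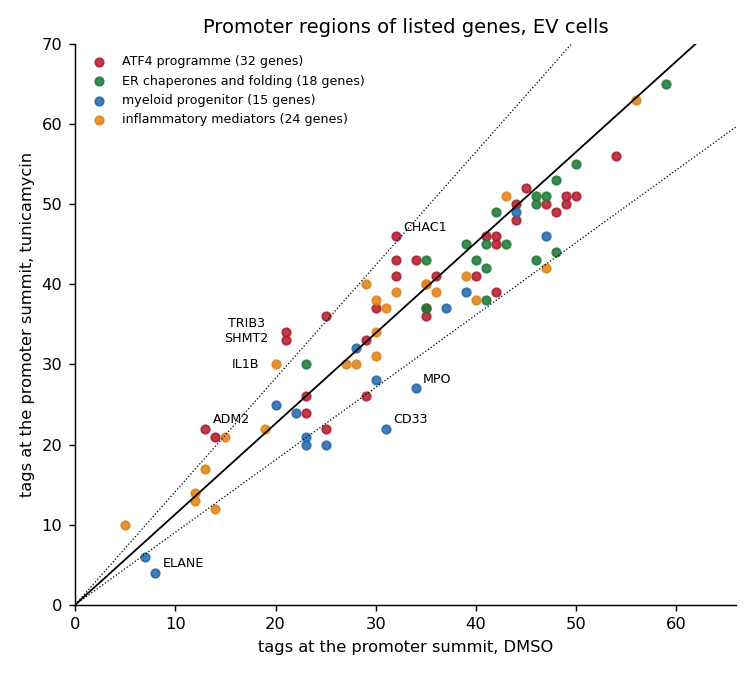
Summit tags of the strongest shared promoter region of listed genes in EV_DMSO (x axis) and EV_Tm (y axis), 1 point per gene. The solid line is the depth ratio of 1.13 and the dotted lines are 1.25-fold to either side; 6 ATF4 programme genes lie at or above the upper line and 6 myeloid markers at or below the lower one.

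Counting only the strongest shared promoter region of each gene, regions with a CARE differed little from the rest as a group. The second promoter regions with a CARE at WARS1 (16 and 37 tags) and SARS1 (18 and 35), named above, are therefore not included. The 64 counted regions with a CARE, which serve 67 genes, had a median log2 ratio of −0.00552 against −0.0665 for 13753 without. They were higher by the fold in 12.5% against 5.37%, and lower in 14.1% against 12.1%. In p30 cells the medians were 0.201 with and 0.131 without, and in p42 cells 0.166 and 0.122. The 8 regions that were higher belonged to CAMTA2, SHMT2, ZNF334, THADA, ANK2, RACK1, CHAC1 and FBLL1. Several promoters of amino acid transport and tRNA charging genes with a CARE, picked after their values were seen, had depth-scaled ratios near or under 1, among them SLC7A11 (42 and 39 tags, 0.822), MARS1 (36 and 41, 1.01) and CARS1 (45 and 46, 0.905).

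Counted by neighbourhood, within 50000 bp of any start site, the genes with most gained regions were AUTS2 (37 gained, 14 lost), GMDS (24 and 9), NBEA (21 and 17), DLC1 (20 and 7) and RASAL2 (20 and 8), followed by ARID1B, RERE, DLG2, NCOA2 and PCCA. Those with most lost regions were PDE4D (15 gained, 28 lost), DLGAP2 (17 and 25), TRAPPC9 (18 and 25), RERE (19 and 21) and ZFPM2 (9 and 19), followed by ARID1B, MBNL1, NBEA, TRIO and ARHGAP26. These are long genes with up to 47 start sites, and ARID1B, RERE and NBEA are in both series. Per gene, a mean of 2.6 gained and 2.26 lost regions lay nearby over all protein-coding genes. These means were 2.89 and 2.26 for the ATF4 programme, 2.28 and 1.67 for ER chaperones, and 3.38 and 4.06 for myeloid markers. Myeloid markers also had more shared regions nearby, a mean of 17.7 against 10.9 for all protein-coding genes.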

How the data were processed

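ATAC-seq libraries were made with Tn5 from KO52 cells, and 1 peak list of pooled replicates per condition was used, with 2 replicates in each of 6 lists. Per the submitters' processing notes, the authors used Trim Galore 0.6.6 for trimming, Bowtie2 2.4.4 for alignment to hg38, Picard for duplicates and MACS2 for peaks. No shift of reads for the Tn5 cut is named, which would move a summit by a few bp. The deposited fold enrichment of a peak is a ratio of the summit to the local background of its own list, and the deposited −log10 p and −log10 q refer to that background, with a lowest −log10 q of 1.3. None is normalized between lists.

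Fold and p were solved for the whole number of tags at each summit (whole within 0.001 for 100% of peaks) and for the background. The minimum background, with a genome of 2700000000 bp and the shortest peak of each list, gives the depth. That peak was 60 bp wide in both EV lists and in p30_Tm, 59 bp in p30_DMSO and 57 bp in both p42 lists. The solution was checked on simulated data. Regions were ranked by the percentile of −log10 q within a list. Motifs were exact matches within 100 bp of the best summit, on both strands, for 19 consensus sequences, genes came from GENCODE 44, and sequences came from the hg38 reference.

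The regions named are the 8 strongest gained and lost, the 8 largest rises that end and falls that start at the 75 percentile or above, the 10 genes with most gained and most lost regions nearby, and genes of fixed lists. Others are said to be chosen afterwards. Members and lists were chosen with earlier results of these data known. No test was possible with 1 list per condition. Some regions and genes are not reported here. Alternatives were equal peak numbers, stricter q, depth scaling, other overlaps, promoter widths and motif windows, autosomes only, and regions merged from all 6 lists. Python 3.11.15, numpy 2.4.6, scipy 1.17.1 and pandas 2.3.3 were used.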

Additional observations from a re-analysis of the deposited data

How the results depend on the processing

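Leaving out a replicate was not possible because each list pools both replicates of a condition. No paired analysis was possible because the deposited columns carry no replicate and no result comes from a test. Of 84 alternatives for the counts and shares of gained and lost regions, 36 moved the value by less than its counting interval or, for counts, less than 1.5 times, and 48 moved it further. Under each alternative the CARE share of gained regions stayed above that of lost ones.

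Restricting each list to peaks at 5 or more in −log10 q, 22788 regions were gained and 17153 lost, the promoter shares were 16.5% and 14.4%, the gained CARE share was 1.57%, the TRE shares were 11.7% and 11.5%, and 14.1% and 9.62% of gained regions were also gained in p30 and p42 cells. Requiring 10 or more in −log10 q of the peak behind a call, 324 were gained and 139 lost, with promoter shares of 10.8% and 9.35%, CARE shares of 8.33% and 1.44%, TRE shares of 12.7% and 10.1%, and 17% and 6.48% also gained in p30 and p42 cells. At a limit of 5 for that peak, chosen after seeing the data, the CARE shares were 2.12% and 1.04%.

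When shared peaks had to cover at least 50% of each other, 78583 regions were gained and 65063 lost, the promoter shares were 19.2% and 17.1%, the gained CARE share was 1.14%, the gained TRE share 9.78%, and 10.2% and 7.61% were also gained in p30 and p42 cells. With regions merged from all 6 lists the promoter shares were 12.4% and 12.5%, so that gained no longer exceeded lost, the TRE shares were 10.7% and 10.8%, and 12.5% were also gained in p30 cells. With the same number of peaks from each list, 15.6% and 11% of gained regions were also gained in p30 and p42 cells.

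Promoters 500 bp wide on each side gave shares of 9.28% and 8.74%, and 5000 bp gave 32.4% and 32.2%. Motifs within 50 bp of the summit gave CARE shares of 0.894% and 0.468% and TRE shares of 7.2% and 7.15%, and the whole region gave 0.855% and 0.408%, and 6.65% and 6.75%. In the gene lists, 2 values reversed: relative to all protein-coding genes, the promoters of stress transcription factors were lower by a median of −0.653 percentile points and higher by 0.0228 in log2 tags, and those of ER chaperones were −1.46 and 0.0204. The cause was not tested. A further 28 of 63 alternatives for motif shares and gene lists, added ones included, moved a value without turning it. Depth limits every statement on a region without a peak, and p42 and p30 lists differ in depth from EV lists by up to 29980000 against 22250000 tags.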

Other observations

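By chromosome, the ratio of gained to lost regions ran from 0.932 on chromosome 21 to 1.4 on X. Chromosome 13 had the largest changed share among the 23 chromosomes, with 2894 gained and 2877 lost of 12560 regions, or 45.9%, and chromosome 19 the smallest, 27.9%. Copy number in this cell line was not analysed here.

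Around genes of the stress response, within 50000 bp, some shared regions other than the strongest promoter region had higher ranks after tunicamycin. They are the largest rises near each gene, so their direction is fixed by the choice. The CEBPG region went from 6 to 13 tags, the SDF2L1 region from 5 to 12, the PDIA6 region from 10 to 23 and the CEBPB region from 6 to 11.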
